A study of Mus musculus with 10 samples.

Results

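Collagens are the structural proteins of the dermis and of the basement membranes beneath epidermis and around vessels, nerves and muscle fibres. The genes described here are those whose symbol in the deposited table has the form Col, a type number, the letter a and a chain number, such as Col1a1. The table lists 18994 genes, and 44 of them fit this form: 11 fibrillar chains, 6 basement membrane chains of type IV, 9 FACIT chains (fibril-associated collagens with interrupted triple helices) and 18 others. They were measured by mRNA sequencing in cheek skin of healthy C57BL/6 mice aged 6 to 8 weeks. The cheeks had been shaved 3 days before, and the right one was injected intradermally with 5 µL of either vehicle or matrix metalloproteinase 9 (MMP9, a secreted gelatinase) at 1 µg per cheek. Both groups of 5 mice therefore carried a shave and an injection, and tissue was taken 4 hours after it. Each library is 1 numbered mouse. The labels used here give neither the sex of the mice nor what the vehicle held.

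A collagen molecule is a trimer of chains wound into a triple helix, which needs glycine at regular intervals along each chain. Chains are hydroxylated, folded on the chaperone encoded by Serpinh1 and secreted by fibroblasts in the dermis, after which fibrillar procollagens are trimmed and cross-linked into fibrils. Gelatinases such as MMP9 cleave denatured collagen and type IV collagen. That is an action on the protein, whereas the values below are transcript levels.

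Total estimated counts were 17121541 to 19443099 per library. One library, MMP9 replicate 4, stood apart from the other 9 by transcript length. With length implied by the deposited counts and FPKM values, the shortest eighth of tested genes (up to 1220 bases) lay at a median of 0.62 above its 10-library mean on the log2 CPM scale in that library, and the longest eighth (from 5668 bases) at -0.43. The shortest eighth lay between -0.17 and -0.01 in the other libraries. Collagen transcripts are long: the tested chains had a median implied length of 6061 bases against 2782 bases over all tested genes, and 21 of 39 were in the longest eighth. MMP9 replicate 4 was the lowest of the 10 libraries for 23 of the 39 tested chains, as it was for 65.8% of all genes of the longest eighth. The median deviation of the chains there was -0.53, and -0.30 after a fit on length was taken off. In MMP9 replicate 3, where the longest eighth lay at 0.03, these medians were -0.23 and -0.25. Markers of skin and of the muscle under it were present in every library, with basal keratinocyte markers summing to 5200 to 9570 TPM and skeletal muscle markers to 14920 to 28620 TPM. Leaving out MMP9 replicate 4 is given below beside the class values and beside the chains it moved by over 1.5 times among those printed per library.

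**Figure D1:**
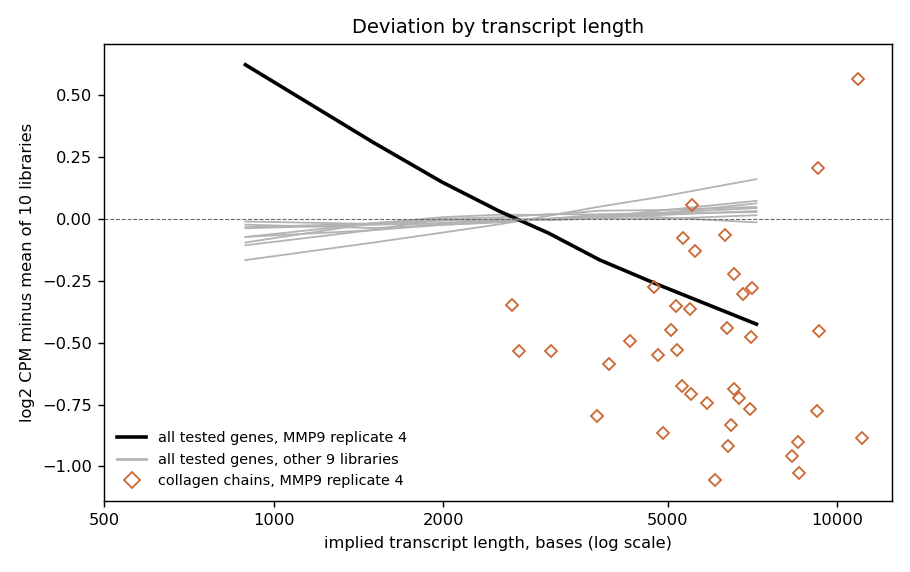
Median deviation from the 10-library mean (log2 CPM, vertical axis) of all tested genes, in eighths by implied transcript length (horizontal axis, bases, log scale), with a line for each library, and each collagen chain in MMP9 replicate 4 as a diamond. The line of MMP9 replicate 4 falls from 0.62 for the shortest eighth to -0.43 for the longest, and most collagen chains lie at or below it.

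No collagen chain gene passed the test between MMP9 and vehicle 4 hours after the injection. Of the 44 chains, 39 had enough counts to be tested, and 0 of 39 passed edgeR's quasi-likelihood test at a Benjamini-Hochberg adjusted p of 0.05, with adjustment over all 15250 genes tested, of which 0% passed. None of the 39 had an unadjusted p under 0.05, against 3.19% of all tested genes, and the CPM (library-scaled counts, with TMM factors) of the groups overlapped for each of the 39, where 0.564% of all tested genes did not overlap. DESeq2 called 0 of the chains and 0.00528% of all genes it tested, and limma-voom called 0 of the chains and 0%. Log2 fold changes, MMP9 over vehicle, ran from -0.56 to 0.27, with 19 positive and 20 negative and a median of -0.02, beside 0.01 over all tested genes. The 95% interval stayed between -1 and 1 (log2) for 34 of 39 chains, and its median half-width was 0.56. The median ran from -0.14 to 0.07 over the alternatives and changed sign under several of them. Without MMP9 replicate 4, 24 of 39 chains were positive and the median was 0.07, beside 47.6% positive and a median of -0.01 over all genes tested in that fit. Without vehicle replicate 5 the median of the chains was 0.02. In the fit without MMP9 replicate 4, 2 of 39 had an unadjusted p under 0.05 (edgeR), Col27a1 and Col16a1. The share over all genes tested in that fit was 3.8%, and 0 chains passed the edgeR adjustment. With an offset for transcript length 2 of 39, Col4a3 and Col8a2, had an unadjusted p under 0.05 (edgeR, 0.0482 and 0.0485), against 3.95% of all genes, and again 0 passed.

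**Figure D2:**
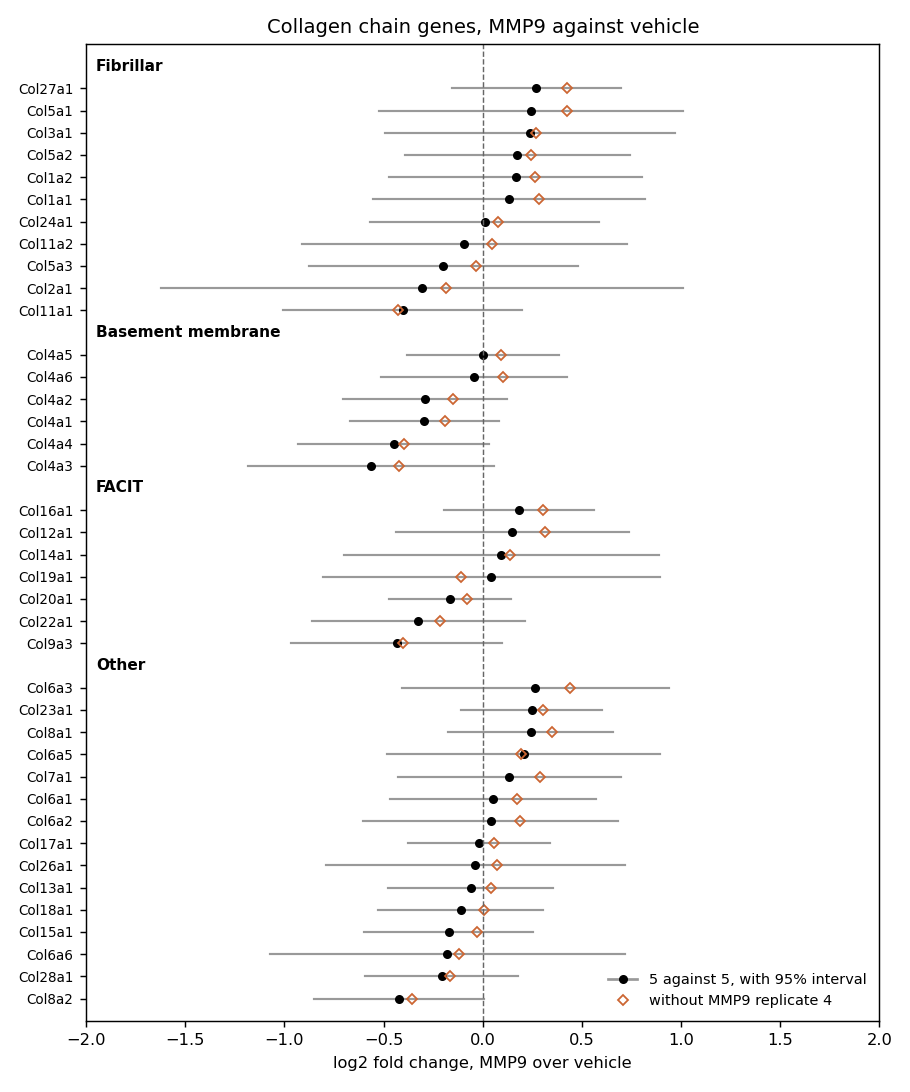
Log2 fold change, MMP9 over vehicle (horizontal axis), of the 39 tested collagen chain genes (vertical axis, by class), as black points with 95% intervals for 5 against 5 libraries and as diamonds without MMP9 replicate 4. The points lie between -0.56 and 0.27, the interval of every chain includes 0, and most diamonds lie to the right of their point.

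Fibrillar chains made up most of the collagen mRNA. Their summed level was 2056 ± 588 TPM (the authors' length-scaled transcript level) in vehicle and 2296 ± 1062 TPM after MMP9 (mean ± SD of 5 mice), which was 67.2% and 70.3% of all collagen TPM. In the order of the replicates the sum was 2391, 1436, 1436, 2295 and 2724 TPM in vehicle and 2805, 2896, 1223, 1106 and 3448 TPM in MMP9. The lowest and the highest library were thus both in the MMP9 group. Without MMP9 replicate 4 the MMP9 mean was 2593 ± 956 TPM. Of the 11 chains 7 had positive log2 fold changes and 0 passed, with a median of 0.13 that ran from -0.04 to 0.25 over the alternatives.

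Col1a1 (Entrez gene 12842), the alpha 1 chain of type I collagen and the main chain of dermal fibres, stood at 735, 511, 506, 706 and 814 TPM in the vehicle mice and at 971, 958, 376, 256 and 1033 TPM in the MMP9 mice. In MMP9, 3 libraries lay above every vehicle library and the other 2 below every one. The log2 fold change, 0.13 ± 0.31 (SE), had an edgeR adjusted p of 0.986, and it was 0.28 without MMP9 replicate 4. Col1a2 (Entrez gene 12843), its partner chain in type I collagen, had 712, 371, 442, 658 and 749 TPM in vehicle and 789, 831, 376, 307 and 954 TPM in MMP9, with the same 3 MMP9 libraries above all vehicle libraries, replicate 3 just above the lowest of them and replicate 4 below. On CPM the order differed. There MMP9 replicate 4, at 1450, was within the vehicle range of 1156 to 2285, replicate 3, at 1111, was below it, and replicate 1 was level with its top. MMP9 over vehicle came to 0.17 ± 0.29 (log2, SE; edgeR adjusted p = 0.981), and to 0.26 without MMP9 replicate 4. Col3a1 (Entrez gene 12825), which forms the thinner type III fibres, had 845, 463, 415, 813 and 995 TPM in vehicle and 893, 970, 390, 494 and 1294 TPM in MMP9. It had the highest total count of the 44 chains, 472617 over the 10 libraries, and a log2 fold change of 0.24 ± 0.33 (SE; edgeR adjusted p = 0.981). The log2 fold change of Col3a1 was 0.27 without MMP9 replicate 4 and 0.02 without MMP9 replicate 5. These 3 genes together held between 52.5% and 72.8% of the collagen TPM of a library. Signs of the type I chains were not stable, with log2 fold changes of Col1a1 from -0.05 to 0.30 and of Col1a2 from -0.01 to 0.32 over the alternatives.

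In MMP9 replicate 3 the type I and III chains were low while fibroblast markers were not. There Col1a1, Col1a2 and Col3a1 had 376, 376 and 390 TPM, and Sparc, a collagen-binding matrix protein, had 894 TPM, the lowest of the 10 libraries. Dpt, a fibroblast gene that is not a collagen, had 391 TPM in the same library, within the 201 to 531 TPM of vehicle, and the summed level of 7 fibroblast markers was 921 TPM against 465 to 1115 TPM in vehicle. In vehicle replicates 2 and 3 both were low, with fibroblast sums of 564 and 465 TPM. MMP9 replicate 4, where long transcripts were low, had Col1a1 and Col1a2 at 256 and 307 TPM with a fibroblast sum of 797 TPM. The fibroblast markers were split in that library. Dpt and Clec3b made up most of the sum, at 424.48 and 209.96 TPM, and with Mfap5 and Pi16 were within the vehicle range. Pdgfra, Pdgfrb and Fbln1, at 10.16, 13.04 and 30.67 TPM, were each the lowest of the 10 libraries. MMP9 replicate 1 had Col1a1 at 971 TPM with a lower fibroblast sum, 616 TPM, in which Dpt was 261 TPM. Its markers did not all move alike. Pdgfrb, at 36.3 TPM, was above the 22.1 to 32.7 TPM of vehicle, and the other markers were within the vehicle range. The part of tissue composition in the collagen values was not tested, and in whole tissue fewer fibroblasts and less RNA per fibroblast cannot be told apart.

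**Figure D3:**
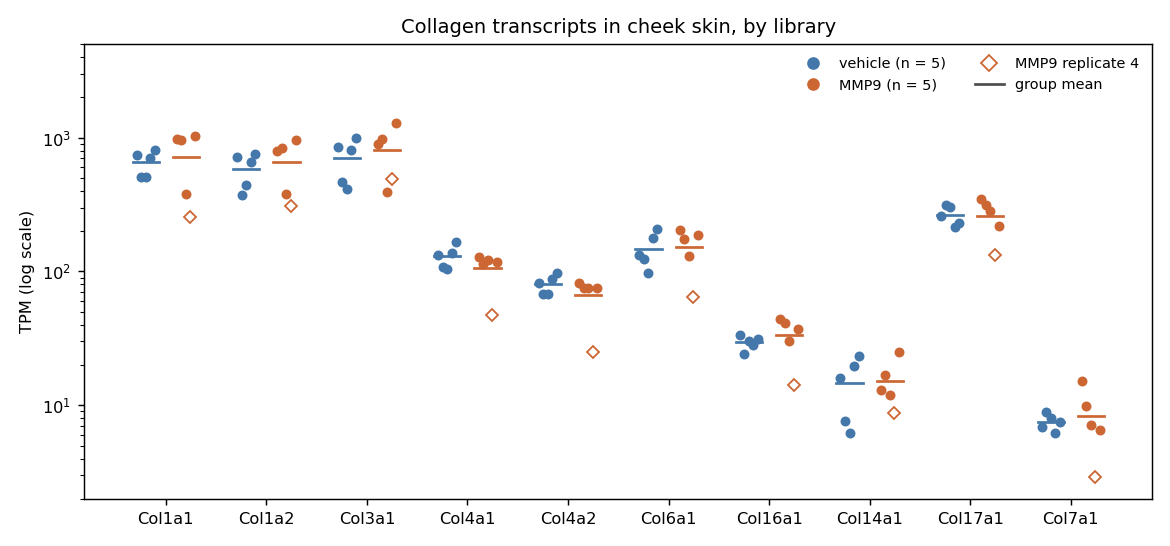
TPM (vertical axis, log scale) of 10 collagen chain genes in each library, vehicle in blue and MMP9 in orange, with MMP9 replicate 4 as an open diamond and bars for group means. Groups overlap for every gene; Col1a1 in MMP9 spans 256 to 1033 TPM and in vehicle 506 to 814 TPM.

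Type V chains, which join type I fibrils and limit their width, were at lower levels, with Col5a1 at 29.4 ± 10.2 TPM (vehicle) and 35.1 ± 18.8 TPM (MMP9), Col5a2 at 47.9 ± 16.6 and 53.1 ± 20.1 TPM, and Col5a3 at 25.4 ± 9.68 and 22.2 ± 10.3 TPM (SD, n = 5). Their log2 fold changes were 0.24, 0.17 and -0.20, and 0.43, 0.24 and -0.03 without MMP9 replicate 4. Col27a1 (Entrez gene 373864), a fibrillar chain known from cartilage, stood at 2.90, 3.21, 3.11, 2.95 and 2.82 TPM in the vehicle mice and at 4.62, 4.00, 4.59, 1.46 and 4.78 TPM in the MMP9 mice. In MMP9, 4 libraries lay above all vehicle libraries and replicate 4 below them. MMP9 over vehicle came to 0.27 ± 0.19 (log2, SE; edgeR adjusted p = 0.981). Without MMP9 replicate 4 it came to 0.43 ± 0.085 (edgeR unadjusted p = 0.000603, adjusted p = 0.999), and Col27a1 was then the only one of the 39 chains whose groups did not overlap, against 1.33% of all tested genes. With an offset for transcript length and all 10 libraries, the log2 fold change was 0.29 and the edgeR adjusted p 0.997. Col11a1 (Entrez gene 12814), a type XI chain of cartilage that also occurs in other connective tissue, had 2.36, 1.47, 3.86, 1.45 and 2.07 TPM in vehicle against 1.82, 2.01, 1.10, 1.22 and 1.99 TPM in MMP9, a log2 fold change of -0.40 ± 0.27 (SE; edgeR adjusted p = 0.981). The highest value was in vehicle replicate 3, and without that library the log2 fold change was -0.14. The cartilage chain Col2a1 had 103 counts over all libraries, and 4 cartilage markers summed to 0.43 to 1.4 TPM per library.

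No chain of type IV collagen, the network of basement membranes, passed the test. Of the 6 chains 5 had negative log2 fold changes, with a median of -0.29 that stayed negative, between -0.40 and -0.17, over the 21 alternatives. Their summed level was 219 ± 38.0 TPM in vehicle and 180 ± 58.4 TPM after MMP9 (mean ± SD of 5 mice), and 206 ± 10.1 TPM in the 4 MMP9 libraries other than replicate 4. Col4a1 (Entrez gene 12826), the chain of which the common type IV molecule holds most, stood at 133, 107, 104, 138 and 167 TPM in the vehicle mice and at 128, 113, 121, 47.5 and 117 TPM in the MMP9 mice. The other 4 MMP9 libraries all fell within the vehicle range. The log2 fold change, -0.30 ± 0.17 (SE), had an edgeR adjusted p of 0.981, and it was -0.19 without MMP9 replicate 4. Col4a2 (Entrez gene 12827), its partner, had 82.7, 68.3, 67.7, 87.9 and 97.8 TPM in vehicle and 81.7, 74.8, 75.3, 25.2 and 74.7 TPM in MMP9, which was the same pattern at a lower level. MMP9 over vehicle came to -0.29 ± 0.19 (log2, SE; edgeR adjusted p = 0.981), and -0.15 without that library. Blood endothelium, whose basement membrane is rich in these chains, gave a sum over 7 markers of 225 to 283 TPM in vehicle and 156 to 298 TPM in MMP9, with 156 TPM in MMP9 replicate 4. The part of these markers in the result was not tested.

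Col4a3 and Col4a4, chains best known from the kidney filter, were at low levels. Col4a3 (Entrez gene 12828) had 0.81, 0.41, 0.64, 0.48 and 0.38 TPM in vehicle and 0.50, 0.50, 0.37, 0.13 and 0.35 TPM in MMP9, with a log2 fold change of -0.56, the lowest of the 39 chains, and a standard error of 0.28 (edgeR adjusted p = 0.981). Both had MMP9 libraries within and below the vehicle range. Col4a4 (Entrez gene 12829) had 0.75, 0.67, 0.91, 0.81 and 0.65 TPM in vehicle and 0.63, 0.89, 0.40, 0.30 and 0.51 TPM in MMP9, a log2 fold change of -0.45 ± 0.22 (SE; edgeR adjusted p = 0.981). Without MMP9 replicate 4 these values were -0.42 and -0.39, and without vehicle replicate 1 that of Col4a3 was -0.37. Col4a5 and Col4a6 together form a type IV molecule found in the epidermal basement membrane. They had 4.18 ± 0.426 and 3.08 ± 0.511 TPM in vehicle and 4.18 ± 1.52 and 3.00 ± 1.23 TPM in MMP9. Their log2 fold changes were 0.003 and -0.04, and 0.09 and 0.10 without MMP9 replicate 4.

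Col4a1 and Col4a2 lie head to head on chromosome 8 and varied together over the libraries, so their start regions are shown. The windows run from 250 bases before to 50 after the start in RefSeq on GRCm38.p6, an earlier build than that of the expression files. Col4a1 is at chr8:11312777-11313076 on the minus strand and Col4a2 at chr8:11312555-11312854 on the plus strand, so that the windows share 78 bases and the annotated starts are 21 bases apart. For contrast, the windows of Col1a2 (chr6:4505368-4505667, plus strand) and Col3a1 (chr1:45311288-45311587, plus strand) are those of a pair of dermal fibre chains on different chromosomes. Capitals mark 3 promoter motifs, searched on both strands. The GC box was searched as GGGCGG. The CCAAT box was searched by the letters of its name. For the TATA box the letters were TATAAA. No marked motif overlaps another within a window.
Col4a1: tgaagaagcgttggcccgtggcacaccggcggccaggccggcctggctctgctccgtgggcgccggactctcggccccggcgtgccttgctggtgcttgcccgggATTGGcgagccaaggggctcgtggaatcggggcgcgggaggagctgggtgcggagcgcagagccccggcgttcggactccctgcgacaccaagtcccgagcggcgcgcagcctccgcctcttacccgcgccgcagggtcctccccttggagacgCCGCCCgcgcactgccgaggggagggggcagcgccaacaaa
Col4a2: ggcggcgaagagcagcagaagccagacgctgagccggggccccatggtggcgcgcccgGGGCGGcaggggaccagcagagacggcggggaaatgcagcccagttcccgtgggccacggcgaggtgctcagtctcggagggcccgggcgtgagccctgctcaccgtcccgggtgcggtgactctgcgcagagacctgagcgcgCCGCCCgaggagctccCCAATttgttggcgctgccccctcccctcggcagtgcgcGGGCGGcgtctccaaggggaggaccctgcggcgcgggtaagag
Col1a2: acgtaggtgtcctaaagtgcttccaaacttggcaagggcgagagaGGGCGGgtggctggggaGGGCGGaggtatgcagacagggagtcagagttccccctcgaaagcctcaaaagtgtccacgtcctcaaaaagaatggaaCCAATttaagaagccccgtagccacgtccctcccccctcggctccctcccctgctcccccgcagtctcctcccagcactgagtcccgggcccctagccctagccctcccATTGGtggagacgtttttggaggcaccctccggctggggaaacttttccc
Col3a1: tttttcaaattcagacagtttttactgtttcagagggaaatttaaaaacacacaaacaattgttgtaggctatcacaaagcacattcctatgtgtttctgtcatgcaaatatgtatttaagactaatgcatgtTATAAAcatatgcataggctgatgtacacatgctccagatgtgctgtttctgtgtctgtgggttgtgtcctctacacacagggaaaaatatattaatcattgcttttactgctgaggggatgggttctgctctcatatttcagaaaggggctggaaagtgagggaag
The GC box of the Col4a1 window and the last one of the Col4a2 window are the same bases, read on opposite strands. Col3a1 had none of the GC or CCAAT boxes and 1 TATA box, and a G and C content of 37.7% against 74.0% and 73.7% in the type IV windows and 61.0% in Col1a2. Windows were listed for 35 of the 44 chains. A GC box was in 23 of their 38 windows (60.5%) and in 35.7% of all 32851 windows, a CCAAT box in 13 (34.2%) against 37.4%, and a TATA box in 5 (13.2%) against 13.6%. A match of letters is a description of the window and not a site.

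FACIT chains, which sit on the surface of fibrils, summed to 59.3 ± 8.96 TPM in vehicle and 64.6 ± 22.0 TPM after MMP9 (mean ± SD of 5 mice). Of 7 tested chains 4 were positive and 0 passed, with a median log2 fold change of 0.04. Leaving out 1 mouse at a time gave a median from -0.15 to 0.08, with -0.08 without MMP9 replicate 4, whereas the summed level after MMP9 was 73.5 ± 10.4 TPM without that library. Col16a1 (Entrez gene 107581), found near the dermal-epidermal junction, had 33.7, 24.3, 30.5, 28.3 and 31.1 TPM in vehicle and 44.4, 41.1, 30.5, 14.2 and 37.4 TPM in MMP9. Of the MMP9 libraries, 3 were above all vehicle libraries and replicate 4 was below them. The log2 fold change, 0.18 ± 0.17 (SE), had an edgeR adjusted p of 0.981, and without that library it was 0.30 ± 0.13 (SE; edgeR unadjusted p = 0.0377, adjusted p = 0.999). Col14a1 (Entrez gene 12818), which binds type I fibrils, varied widely in both groups, at 16.1, 7.63, 6.20, 19.7 and 23.2 TPM in vehicle against 12.96, 16.96, 12.04, 8.74 and 24.9 TPM in MMP9 (log2 fold change 0.09 ± 0.36, SE; edgeR adjusted p = 0.990). Col12a1, its relative on the same fibrils, had 10.2 ± 2.01 and 11.8 ± 6.62 TPM. Col22a1 (Entrez gene 69700), a chain of the muscle-tendon junction, had 0.47, 0.27, 0.50, 0.61 and 0.47 TPM in vehicle against 0.48, 0.34, 0.51, 0.17 and 0.37 TPM in MMP9 (log2 fold change -0.33 ± 0.24, SE). Col9a3 (Entrez gene 12841), a cartilage chain, had 1.22, 1.2, 2.46, 1.05 and 1.75 TPM against 1.19, 1.23, 1.04, 0.63 and 1.32 TPM (-0.43 ± 0.24), and -0.20 without vehicle replicate 3, its highest library. Col20a1 (Entrez gene 73368) had 2.45, 2.53, 3.12, 2.05 and 2.40 TPM against 2.78, 2.82, 2.47, 1.06 and 2.11 TPM (-0.16 ± 0.14). In all 3 the groups overlapped, with MMP9 replicate 4 the lowest library. The edgeR adjusted p of these 3 chains was 0.981. The log2 fold changes of Col22a1 and Col20a1 were -0.21 and -0.08 without MMP9 replicate 4.

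The remaining chains, of several kinds, summed to 723 ± 83.8 TPM in vehicle and 725 ± 253 TPM after MMP9, and 7 of 15 tested were positive with 0 passing and a median of -0.02. Without MMP9 replicate 4 the MMP9 mean was 827 ± 128 TPM, 11 of 15 were positive and the median was 0.07. The median was also positive without vehicle replicate 5 (0.12) and without MMP9 replicate 3 (0.05). Among the remaining chains are the chains of type VI collagen, whose microfibrils surround cells in dermis and muscle. Col6a1 (Entrez gene 12833) had 132, 124, 97.0, 177 and 208 TPM in vehicle and 205, 175, 131, 64.1 and 187 TPM in MMP9, with a log2 fold change of 0.05 ± 0.24 (SE; edgeR adjusted p = 0.991). Its values spread about as widely in vehicle as in MMP9, where only replicate 4 was below the vehicle range. Col6a2 and Col6a3, the other common chains, had log2 fold changes of 0.04 and 0.27, and Col6a5 and Col6a6, which can stand in for Col6a3, had 0.21 and -0.18. Those of Col6a1, Col6a2, Col6a3, Col6a5 and Col6a6 were 0.17, 0.19, 0.44, 0.19 and -0.12 without MMP9 replicate 4. Col6a4 had 89 counts over the 10 libraries and was not tested.

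None of the chains of the dermal-epidermal junction passed the test. Col17a1 (Entrez gene 12821), a transmembrane collagen of the hemidesmosomes of basal keratinocytes, had 260, 312, 304, 214 and 231 TPM in vehicle and 346, 313, 282, 133 and 217 TPM in MMP9. MMP9 replicates 1 and 2 lay above the vehicle range, the latter by little, and replicate 4 below it. MMP9 over vehicle came to -0.02 ± 0.16 (log2, SE; edgeR adjusted p = 0.994), and its 95% interval ran from -0.38 to 0.34. The log2 fold change was 0.06 without MMP9 replicate 4. Col7a1 (Entrez gene 12836), which forms the anchoring fibrils below the epidermis, had 6.91, 8.85, 8.11, 6.23 and 7.5 TPM in vehicle and 15.2, 9.94, 7.17, 2.92 and 6.50 TPM in MMP9. Its SD was 1.02 TPM in vehicle and 4.59 TPM in MMP9, and the log2 fold change was 0.13 ± 0.26 (SE; edgeR adjusted p = 0.981). The value of 15.2 TPM was in MMP9 replicate 1, whose markers of suprabasal keratinocytes summed to 16720 TPM, the highest of the 10 libraries, and whose hair shaft markers summed to 6.68 TPM. Without that library the log2 fold change of Col7a1 was -0.15, and without MMP9 replicate 4 it was 0.29. The suprabasal sum was nearly as high in MMP9 replicate 4, at 16660 TPM, where Col7a1 was lowest at 2.92 TPM. Krtdap alone gave 13726 TPM of that sum. Krt1, Krt10 and Lor, the other markers in it, had 379, 1615 and 945 TPM there, each the lowest of the 10 libraries. Vehicle replicate 2 had 15220 TPM of suprabasal markers and 4.92 TPM of hair shaft markers, with Col7a1 at 8.85 TPM. The part of these markers was not tested.

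Of the short-chain network collagens, Col8a2 (Entrez gene 329941), known from vessel walls and the cornea, had the smallest p of the 39 chains. It stood at 10.3, 8.16, 12.5, 7.41 and 6.31 TPM in the vehicle mice and at 8.54, 8.47, 6.02, 3.53 and 6.36 TPM in the MMP9 mice, so that 2 MMP9 libraries were below all vehicle libraries. MMP9 over vehicle came to -0.42 ± 0.20 (log2, SE; edgeR unadjusted p = 0.0527, adjusted p = 0.981). Its partner Col8a1 (Entrez gene 12837) went the other way in value, with 5.64, 4.15, 4.90, 5.04 and 6.55 TPM in vehicle against 6.93, 6.34, 5.92, 2.72 and 8.86 TPM in MMP9, a log2 fold change of 0.24 ± 0.19 (SE; edgeR adjusted p = 0.981). The direction of each held in the alternatives, at -0.54 to -0.27 for Col8a2 (-0.27 without vehicle replicate 3) and 0.07 to 0.35 for Col8a1 (0.07 without MMP9 replicate 5). Whether the chains differ from each other in response was not tested. Col23a1 (Entrez gene 237759), a transmembrane collagen, had 9.33, 12.4, 9.48, 8.35 and 9.88 TPM in vehicle against 17.4, 12.2, 13.6, 6.56 and 8.60 TPM in MMP9, a log2 fold change of 0.25 ± 0.16 (SE; edgeR adjusted p = 0.981), and of 0.11 without MMP9 replicate 1, its highest library. Col15a1 and Col18a1, chains of basement membrane zones, the latter the source of endostatin, had log2 fold changes of -0.17 and -0.11 (-0.03 and 0.01 without MMP9 replicate 4), Col13a1, known from the nerve-muscle junction, had -0.06 (0.04 without it), and Col28a1, known from peripheral nerve, had -0.21. Beside Col6a4, 4 chains were too low to test, with 23 counts over the 10 libraries for Col9a1, 76 for Col9a2, 30 for Col10a1 and 53 for Col25a1. The remaining tested chains Col11a2, Col19a1, Col24a1 and Col26a1 had 217, 121, 662 and 228 counts and log2 fold changes between -0.09 and 0.04.

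Genes that make, sense and break down collagen were set beside the chains. In the list for synthesis and assembly 26 of 34 tested genes were positive and 0 passed, with a median log2 fold change of 0.09. Without MMP9 replicate 4, 32 of 34 were positive and the median was 0.14, and without vehicle replicate 3 or MMP9 replicate 5 the median was 0.01 or 0.04. Serpinh1, the collagen chaperone, had 236 ± 44.8 TPM in vehicle and 273 ± 74.8 TPM in MMP9, a log2 fold change of 0.24 ± 0.16 (SE). P3h3 and P4ha1, which hydroxylate prolines, had 0.25 and 0.15, and Adamts14, which trims procollagen, had 0.24. Sparc, the most abundant of the list, had 1472 ± 311 and 1426 ± 504 TPM and a log2 fold change of -0.01. Collagen receptors were positive in 7 of 13 tested genes, with 0 passing and a median of 0.01. Adgrg1, a receptor for type III collagen, had 58.6 ± 9.32 and 46.7 ± 16.2 TPM, a log2 fold change of -0.31 ± 0.16 (SE). Antxr1, a receptor for type VI collagen, and Mrc2, which takes up collagen fragments, had 0.23 and 0.29, the collagen-activated kinase gene Ddr1 had -0.16, and Itgb1, the integrin subunit shared by collagen receptors, had 0.01. In the breakdown list 15 of 16 were positive and 0 passed, with a median of 0.10, and 13 of 16 were positive without MMP9 replicate 4. The positive genes of this list include the metalloproteinase inhibitor genes Timp1, Timp2 and Timp3, at 0.18, 0.008 and 0.04. Ctsk, a collagen-cleaving cathepsin, had 110 ± 38.9 and 133 ± 21.2 TPM (log2 fold change 0.35 ± 0.24, SE), and the metalloproteinase genes Mmp3, Mmp13 and Mmp15 differed by 0.27 ± 0.27, 0.57 ± 0.63 and -0.19 ± 0.19 on the log2 scale (SE). Ctsb, the most abundant of that list, had 0.0008. Of all tested genes 53.7% were positive, with a median of 0.01.

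Ratios between chains, taken within a library on the TPM scale, test whether partners kept their proportion. Of 8 ratios 0 passed a two-sided exact permutation test, with 0.921 as the adjusted p of each and 0.00794 as the smallest unadjusted p the design allows. Adjusted over 8 ratios, 1 ratio at that smallest p would not pass 0.05 unless others were also low. The test could therefore not call a change in 1 ratio alone, and the same holds without MMP9 replicate 4. Type I collagen contains more alpha 1 than alpha 2 chains, and Col1a1/Col1a2 was 1.14 ± 0.137 in vehicle and 1.06 ± 0.153 after MMP9 (mean ± SD of 5 mice). Values ran from 1.03 to 1.38 in vehicle and from 0.833 in MMP9 replicate 4 to 1.23 in MMP9. Col4a1/Col4a2 was the steadiest ratio, at 1.60 ± 0.0673 and 1.63 ± 0.148, with 1.88 in MMP9 replicate 4 and 1.51 to 1.71 in all others. Col6a1/Col6a2 was 1.06 ± 0.0785 and 1.08 ± 0.111. Col3a1/Col1a1 was 1.05 ± 0.176 and 1.23 ± 0.410, with 1.93 in MMP9 replicate 4 against at most 1.25 elsewhere. Col12a1/Col14a1 was the widest, from 0.407 to 2.10 in vehicle and from 0.395 to 1.70 in MMP9. Col6a3/Col6a1 was 0.229 ± 0.0290 and 0.259 ± 0.0421, a log2 difference of 0.17 that became 0.27 without MMP9 replicate 4 (exact permutation p = 0.0317, adjusted p = 0.254). The log2 difference was -0.04 for Col5a1/Col5a2 and 0.07 for Col4a5/Col4a6.

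**Figure D4:**
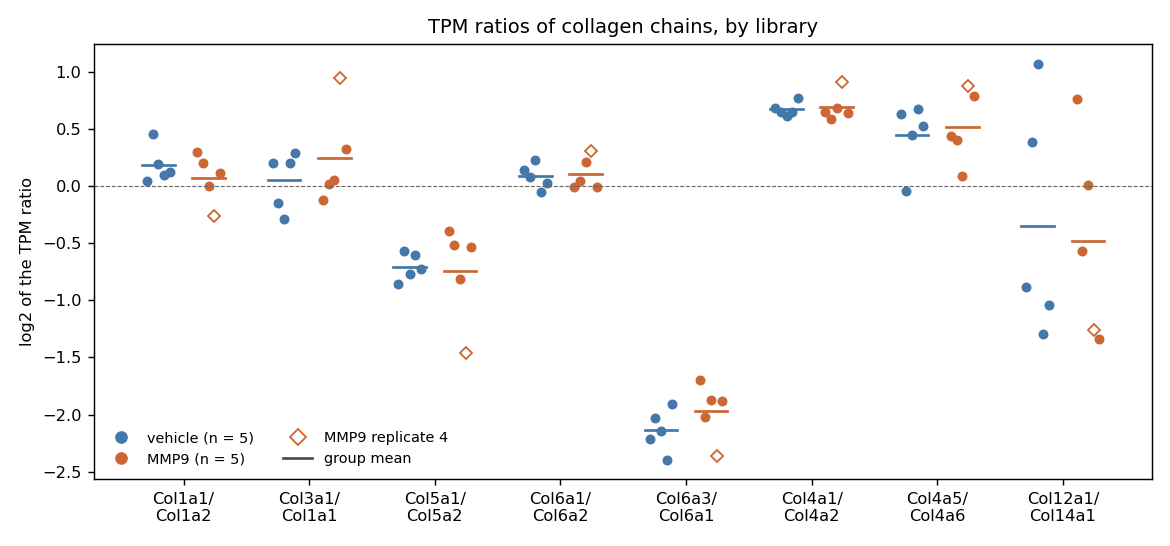
Log2 of the TPM ratio (vertical axis) of 8 pairs of collagen chains in each library, vehicle in blue and MMP9 in orange, with MMP9 replicate 4 as an open diamond and bars for group means. Col4a1/Col4a2 shows the least spread, and MMP9 replicate 4 is the highest for Col3a1/Col1a1 (a ratio of 1.93) and the lowest for Col5a1/Col5a2.

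Most chains that share a molecule varied together from mouse to mouse. Correlations of log2 CPM were computed for 10 pairs over the 10 libraries, where the chains of a pair share each library and piece of tissue. Pearson's r was 0.996 for Col6a1 and Col6a2 and 0.97 for Col4a1 and Col4a2 (Spearman's rho 0.99 and 1.00, permutation p = 1e-05 for either r, the smallest that 100000 permutations can give, adjusted p = 5e-05). MMP9 replicate 4 lies apart for the type IV pair, and without it r was 0.99. For Col1a1 and Col1a2 r was 0.94 (rho 0.95, permutation p = 0.00038, adjusted p = 0.00095) and 0.96 without the 2 libraries farthest from the median of Col1a1, which were MMP9 replicates 3 and 4. Col1a1 and Col3a1, chains of types I and III that do not share a molecule, gave 0.82 (rho 0.87, permutation p = 0.00491, adjusted p = 0.00818). Their r became 0.95 without the same libraries. Whether sharing a molecule adds to such a relation was not tested. Col5a1 and Col5a2 gave 0.90 (rho 0.92, adjusted permutation p = 0.00186), and Col6a1 and Col6a3 gave 0.93 (rho 0.94, adjusted permutation p = 0.000267). Without the 2 farthest libraries, MMP9 replicate 4 and vehicle replicate 3, these were 0.96 and 0.85.

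Other pairs were looser. Col4a3 and Col4a4, at low counts, gave 0.72 (rho 0.87, adjusted permutation p = 0.0230) and 0.82 without MMP9 replicate 4 and vehicle replicate 1. Its r was 0.67 without MMP9 replicate 4 alone, and on deviations from the group means it was 0.58 and no longer passed (adjusted permutation p = 0.0979). Col4a5 and Col4a6, whose annotated starts lie 1343 bases apart on chromosome X, gave 0.61 (rho 0.52, adjusted permutation p = 0.0698) and 0.31 without MMP9 replicates 3 and 4, so that the relation rested on those libraries. Col8a1 and Col8a2 gave -0.12 (rho -0.05, adjusted permutation p = 0.811) and -0.32 without MMP9 replicates 4 and 5. The dermal Col1a1 against the keratinocyte Col17a1 gave 0.04 (rho 0.08, adjusted permutation p = 0.909) and -0.40 without MMP9 replicates 3 and 4.

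**Figure D5:**
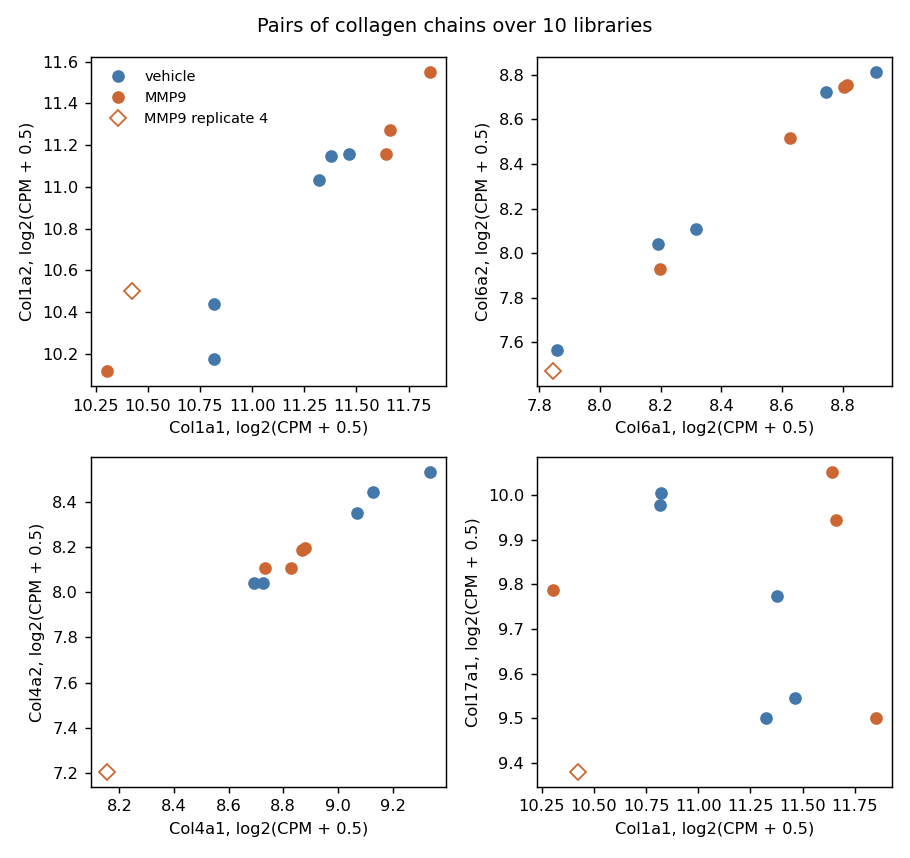
Log2(CPM + 0.5) of one chain against another in each of the 10 libraries for 4 pairs, vehicle in blue, MMP9 in orange and MMP9 replicate 4 as an open diamond. Points of Col1a1 and Col1a2, Col6a1 and Col6a2, and Col4a1 and Col4a2 lie along a line (r from 0.94 to 0.996), and those of Col1a1 and Col17a1 do not (r = 0.04).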

How the data were processed

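Cheek skin mRNA of 5 vehicle and 5 MMP9 mice was selected with oligo(dT) beads and read as single-end 50 base reads on a DNBSeq instrument, per the labels' protocols. The authors deposited estimated counts, of which 60.9% are fractional, with FPKM and TPM values per gene, per the file headers. The submitters' processing notes name HISAT and GRCm39. The sources used here do not give the quantification program, annotation, strand setting or filters, nor how reads shared by similar or overlapping genes were handled.

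Estimated counts were rounded, and the test was edgeR's (version 4.0.16, R 4.3.3; TMM factors, filterByExpr by group, quasi-likelihood F test, treatment as the only term, Benjamini-Hochberg adjustment over all 15250 genes kept, threshold 0.05). The kept genes held 99.95% of the counts. The standard error of a log2 fold change was derived from the F statistic. Levels are the deposited TPM, and fold changes rest on counts. TPM values of a library share a fixed sum, so in MMP9 replicate 4 the high share of short transcripts lowers the TPM of all others. Implied length is count over FPKM and library total, as a median over libraries. The offset for length used a lowess fit (span 0.3) per library and was chosen after the data were seen. Log2 CPM used a prior count of 2, and correlations log2(CPM + 0.5). Ratios were tested by exact permutation, adjusted over 8 ratios. Promoter windows are RefSeq's.

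Chains with full values are Col1a1, Col1a2, Col3a1, Col4a1, Col4a2, Col7a1, Col17a1, the 2 most abundant and the 3 of smallest p in each class, and per partner list the 4 of smallest p and the most abundant. The chains and lists were chosen with earlier results of these data known. Alternatives were upper-quartile or RLE factors, testing all genes or those averaging 1 CPM or more, limma-voom (limma 3.58.1), DESeq2 1.42.0, limma with a trend on log2(TPM + 1) and log2(TPM + 0.1), the mouse number as a block, leaving out each mouse in turn, leaving out vehicle replicate 2 and MMP9 replicate 1 (very low in hair shaft transcripts), FPKM for TPM, and CPM for TPM in the ratios.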

Additional observations from a re-analysis of the deposited data

Results flagged for a closer look

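In 66 sets of 5 values (named chains, class sums and ratios, each in vehicle and in MMP9), Dixon's test at the 95% level picked out 5 values that lay far from the other 4, where chance gives about 1 in 20 sets. All 5 were in MMP9 replicate 4, the library in which long transcripts were low, and the sets share that library and are not independent. They were Col27a1 at 1.46 TPM, Col4a1 at 47.5 TPM, Col4a2 at 25.2 TPM, the summed type IV chains at 76.3 TPM and the Col4a1/Col4a2 ratio at 1.88. Each was the lowest of the MMP9 group except the ratio, which was the highest. With all 10 libraries and an offset for transcript length, the log2 fold changes of Col27a1, Col4a1 and Col4a2 were 0.29, -0.26 and -0.27, beside 0.27, -0.30 and -0.29 with no offset.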

How the results depend on the processing

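No collagen chain, synthesis, receptor or breakdown gene was called under any of the 21 alternatives, and over all genes DESeq2 called 1. The labels do not state that mice of the same number in the groups are paired. Correlations of same-numbered mice ran from -0.242 to 0.455, which cannot settle whether they are. With the mouse number as a replicate block 0 collagen chains were called. Signs near 0 changed, and the cause was not tested. Col17a1 became 0.0029 with upper-quartile factors and 0.0046 with the length offset. With log2(TPM + 1) and log2(TPM + 0.1), Col1a1 became -0.047 and -0.0475, Col6a1 -0.0096 and -0.0103, and Col7a1 -0.0065 and -0.0304. Without the 2 libraries low in hair shaft transcripts, Col1a1 was -0.0404, Col1a2 -0.0003, Col6a1 -0.0959 and Col7a1 -0.0844. Leaving out each mouse in turn gave log2 fold changes of -0.1461 to 0.3079 for Col14a1, -0.1082 to 0.0567 for Col17a1, -0.0397 to 0.3003 for Col1a1, -0.0079 to 0.3217 for Col1a2, -0.0666 to 0.1884 for Col6a1 and -0.1491 to 0.2877 for Col7a1. The log2 ratio differences ran from -0.125 to 0.1438 for Col5a1/Col5a2, -0.0265 to 0.059 for Col6a1/Col6a2, -0.0319 to 0.0481 for Col4a1/Col4a2, -0.0516 to 0.1791 for Col4a5/Col4a6 and -0.4375 to 0.2296 for Col12a1/Col14a1. On deviations from group means r was 0.5786 for Col4a3 and Col4a4 (adjusted permutation p = 0.0979) and 0.0747 for Col8a1 and Col8a2. On log2(TPM + 1) it was 0.8351 for Col4a5 and Col4a6 (adjusted permutation p = 0.0116) and 0.3331 for Col8a1 and Col8a2. The former value includes MMP9 replicate 4, where both Col4a5 and Col4a6 had their lowest TPM. On log2 CPM without that library r of this pair was 0.3523. The count of mice limits precision, and chains with few counts, such as Col4a3 and Col2a1, have wide intervals.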
